A study of Mus musculus with 3 samples.

Results

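Binding of the forkhead factor Foxf2 near cadherin-11 (Cdh11) and 9 related cadherin genes was examined in the developing mouse tongue. The data were a single list of ChIP-seq peaks in the mm10 build, and a peak was assigned to a gene when its midpoint lay nearer to a transcription start site (TSS) of that gene than to that of any other protein-coding gene. Of 25704 peaks on the chromosomes, 103 were assigned to the 10 cadherin genes Cdh2, Cdh4, Cdh6, Cdh7, Cdh8, Cdh9, Cdh10, Cdh11, Cdh12 and Cdh13. Cdh11 was chosen by its number of peaks in this list, which is among the highest of all genes, so its count is a description and was not tested. The 2 ChIP libraries came from Foxf2FLAG/FLAG embryos at E12.5, in which CRISPR editing had placed a 3xFLAG tag on the endogenous Foxf2 protein, and were precipitated with an antibody against FLAG. The 1 input library, from tongue of the same stage and protocol, had no precipitation. The labels give 75 tongues for each library without saying whether these were pooled per library or in all. No FLAG ChIP from untagged tongue was analysed here. The list has no values per library, so the ChIP libraries were not compared with each other or with the input, and sequencing depth is unknown. Peaks within this list are not replicates, and each interval or p-value below covers counting of peaks only. The tongue is a mixed tissue, and which of its cells carried a peak cannot be told from the list, which also holds no expression values to check cell type markers.

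Cadherins are single-pass or lipid-anchored surface proteins that bind cadherins on neighbouring cells in the presence of calcium. Their cytoplasmic tails bind catenins, which link the contact to the actin cytoskeleton, and the set of cadherins on a cell affects which cells it adheres to. Type I cadherins such as N-cadherin (Cdh2) and R-cadherin (Cdh4) hold cells together firmly. Type II cadherins include Cdh11, a cadherin of mesenchymal cells also called OB-cadherin, and Cdh6 to Cdh10 and Cdh12, many of them best known from the nervous system. T-cadherin (Cdh13) lacks the cytoplasmic tail and is anchored by a lipid. Foxf2 is expressed in the mesenchyme of the developing face, and forkhead factors bind short sequences built on the core TAAACA or TAAATA.

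The 5 peaks of Cdh11 with the highest scores are shown with the sequence at the forkhead core nearest to their centre, because the forkhead core was more frequent at cadherin peaks than beside them, as given below. Each line gives 61 bases of mm10, 5′ to 3′ on the strand that reads the core, with that nearest core alone in capitals. Further cores within the 61 bases are not marked. The fifth peak had no core, and its central 61 bases are shown without capitals.
Cdh11, score 58.1, 311 kb upstream, chr8:103096524-103096584, plus strand: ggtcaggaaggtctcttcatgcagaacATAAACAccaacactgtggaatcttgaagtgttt
Cdh11, score 58, 593 kb upstream, chr8:103378728-103378788, minus strand: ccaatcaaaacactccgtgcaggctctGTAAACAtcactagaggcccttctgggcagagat
Cdh11, score 52.7, 415 kb upstream, chr8:103200540-103200600, plus strand: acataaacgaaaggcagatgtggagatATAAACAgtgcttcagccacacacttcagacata
Cdh11, score 50.5, 42.4 kb downstream, chr8:102743205-102743265, plus strand: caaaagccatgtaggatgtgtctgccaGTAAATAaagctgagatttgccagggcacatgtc
Cdh11, score 39.9, 232 kb downstream, chr8:102553579-102553639, plus strand: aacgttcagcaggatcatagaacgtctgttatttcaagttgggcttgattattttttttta

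The next sequences are from the highest-scored peak of 8 other cadherin genes, so that the core can be compared between family members. Those of Cdh7 and Cdh8 had no core within 200 bp around the centre. Neither did the highest-scored peak of Cdh2 (33.5), whose sequence is not shown.
Cdh4, score 23.6, 296 kb upstream, chr2:179146426-179146486, plus strand: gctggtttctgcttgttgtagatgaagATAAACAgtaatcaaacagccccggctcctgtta
Cdh6, score 20.8, 341 kb upstream, chr15:13515070-13515130, minus strand: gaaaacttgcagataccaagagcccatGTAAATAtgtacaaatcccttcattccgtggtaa
Cdh7, score 12.7, 9.86 kb upstream, chr1:109972539-109972599, plus strand: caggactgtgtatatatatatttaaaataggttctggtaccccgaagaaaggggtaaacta
Cdh8, score 41.1, 235 kb upstream, chr8:99651471-99651531, plus strand: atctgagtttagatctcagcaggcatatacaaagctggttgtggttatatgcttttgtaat
Cdh9, score 19.7, 935 kb downstream, chr15:17712569-17712629, minus strand: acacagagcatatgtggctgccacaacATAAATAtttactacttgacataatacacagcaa
Cdh10, score 41.2, 58.7 kb upstream, chr15:18760172-18760232, plus strand: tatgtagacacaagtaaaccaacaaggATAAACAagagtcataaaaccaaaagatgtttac
Cdh12, score 61.4, 207 kb upstream, chr15:20902565-20902625, plus strand: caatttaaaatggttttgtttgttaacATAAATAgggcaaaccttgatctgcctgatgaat
Cdh13, score 22.5, 33.2 kb downstream, chr8:118316870-118316930, plus strand: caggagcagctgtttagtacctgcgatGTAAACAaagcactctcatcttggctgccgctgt
The capitals differ from line to line. Of the 10 cores in capitals, 4 read ATAAACA, 2 read GTAAACA, 2 read GTAAATA and 2 read ATAAATA. The Cdh10 line also holds an unmarked GTAAACA on the other strand. The Cdh9 line holds a GTAAATA on the other strand that overlaps its capitals.

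All 10 cadherin genes were nearest to at least 1 peak, against 37.3% of 21938 protein-coding genes. The territories of the cadherin genes, meaning the bases nearer to their start sites than to those of any other protein-coding gene, were all in the top decile of genes by length, in which 82.5% had a peak. Cdh11, Cdh2 and Cdh4 had 10 or more peaks, as did 2.26% of all protein-coding genes. Within the top decile of territories such counts were more common: the 90th percentile was 14 peaks, above the number at Cdh4. Cdh11 had 33, Cdh2 had 21, Cdh4 had 12, Cdh6 had 9, Cdh10 had 8, Cdh8 and Cdh13 had 6 each, Cdh7 and Cdh9 had 3 each, and Cdh12 had 2. Their median was 7 peaks, and that of all genes in the top decile of territories was 4. The counts were thus uneven within the family, with 54 of the 103 peaks at Cdh11 and Cdh2. Both the counts and their order depended on the assignment. When noncoding genes were included among the nearest start sites, 12 peaks were assigned to the 10 genes, 0 of them at Cdh11, 3 at Cdh2 and 4 at Cdh6. Within the annotated gene spans there were 27 peaks, 10 at Cdh13, 5 at Cdh11 and 3 at Cdh2.

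The order changed in part when the length of the territory was taken into account. Cdh11 had 1.41 peaks per 100 kb over a territory of 2343 kb, and chromosome 8 as a whole had 1.11. Cdh4 had 1.20 per 100 kb, and chromosome 2 had 1.14. The remaining 8 genes lay below the mean of their own chromosome. Cdh2 had 0.950 per 100 kb (chromosome 18, 1.20), Cdh13 had 0.778 (chromosome 8, 1.11), Cdh6 had 0.461 and Cdh10 had 0.411 (chromosome 15, 1.02), and Cdh7, Cdh8, Cdh9 and Cdh12 had between 0.105 and 0.177. All 10 territories together held 0.531 peaks per 100 kb, against 1.06 on the autosomes. Among the 2194 genes with the longest territories, Cdh11 ranked 594 by density and, among all genes, 9 by number, shared with Bnc2. The large number of peaks at Cdh11 therefore went with a long territory and a density moderately above that of its chromosome.

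**Figure D1:**
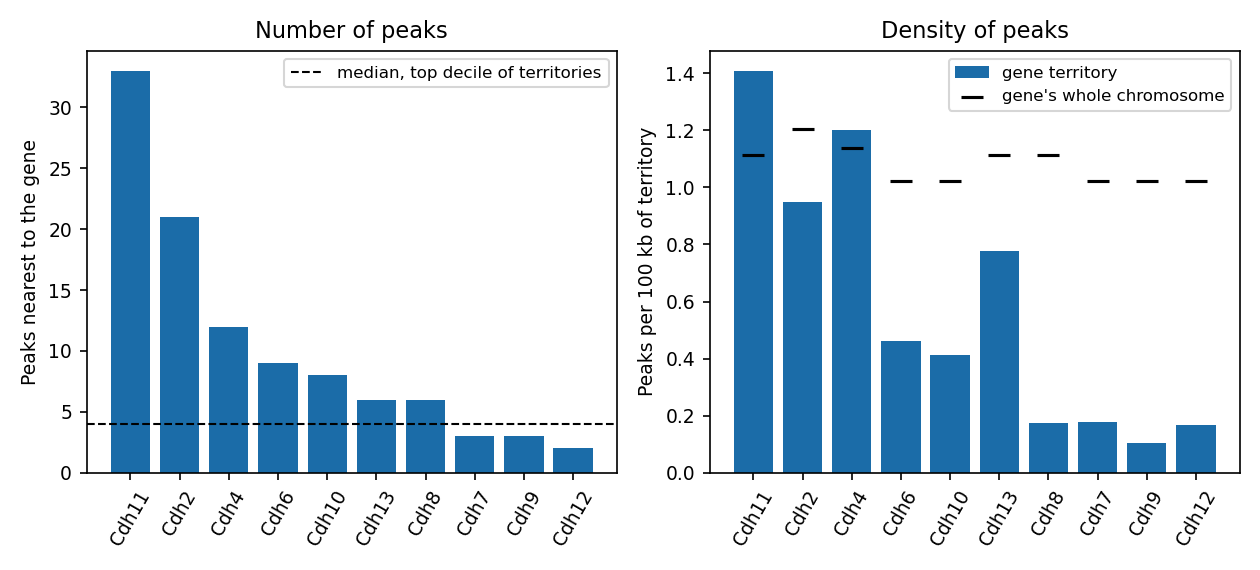
Left, bars give the number of peaks nearest to each cadherin gene, and the dashed line the median of 4 for genes in the top decile of territories. Right, bars give peaks per 100 kb of each territory and black dashes the density of the gene's whole chromosome. Cdh11 (1.41) and Cdh4 (1.20) stand above their dashes, and the other 8 genes below.

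Cdh11 is annotated on the minus strand of chromosome 8 from 102632095 to 102785642, with 1 start site in the basic transcript set. None of its 33 peaks lay within 10 kb of that site, and the nearest was an intronic peak 13.9 kb downstream with a score of 11.3. Of the 33 peaks, 17 lay upstream of the gene, 5 in its introns and 11 beyond its 3′ end. They spanned 2268 kb, with a median of 48.5 kb between neighbours and a widest interval of 549 kb. The upstream peaks lay 63.6 to 624 kb from the start site and had a median score of 20.6, with a range of 10.6 to 58.1. The scores 58.1, 58, 52.7 and 39.4 belonged to this upstream group, at 311, 593, 415 and 449 kb. The intronic peaks had scores of 11.3, 16.4, 17.1, 22.6 and 50.5. The highest of these, 42.4 kb downstream of the start site, held 2 forkhead cores, and the GTAAATA shown above was centred 16 bp from its centre. The 11 peaks beyond the 3′ end had a median score of 16.2. Of them, 8 lay 946 to 1644 kb from the start site, and all 8 held a forkhead core, with scores between 10.8 and 23.5. The other 3, at 232 to 397 kb, had scores of 11.2, 11.4 and 39.9, and only the peak scored 11.4 held a core. Among peaks outside the cadherin genes and more than 100 kb from a start site, 74.5% held a core. The difference between the 2 groups beyond the 3′ end was not tested.

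The neighbours of Cdh11 on chromosome 8 are also cadherin genes, Cdh8 on the 3′ side and Cdh5 on the 5′ side. Cdh5 encodes VE-cadherin, the cadherin of endothelial junctions. It had 18 peaks, or 2.60 per 100 kb of a shorter territory of 692 kb. The outermost upstream peak of Cdh11 (score 32, 103409053 to 103409265) lay 624 kb from its start site and 692 kb from that of Cdh5. The next peak outwards (score 10.5, 103463405 to 103463617) lay 638 kb from Cdh5 and 678 kb from Cdh11, and was therefore assigned to Cdh5. On the other side, the outermost peak of Cdh11 (score 16.2, 101141467 to 101141679) lay 1644 kb from Cdh11 and 1725 kb from Cdh8. Assignment of these outermost peaks, as of all 103 cadherin peaks, rests on distance alone, and no measurement links a peak to the gene it acts on.

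**Figure D2:**
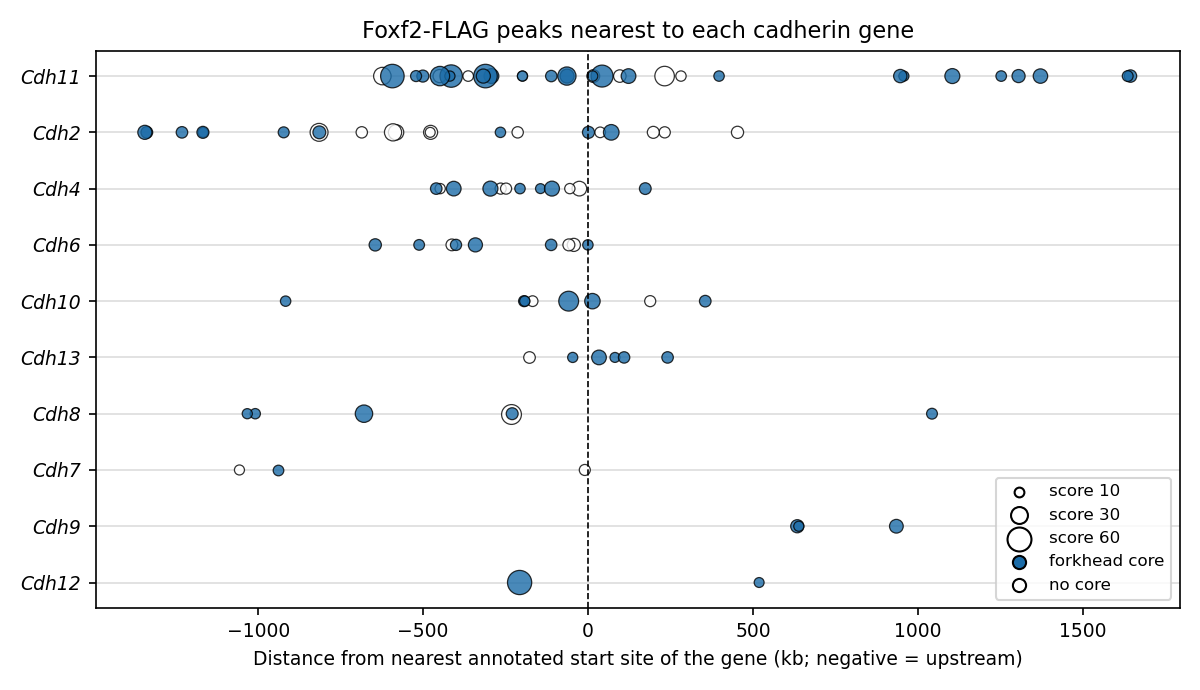
Each circle is a peak, placed by its distance in kb from the nearest annotated start site of its gene (upstream is negative), with area proportional to the authors' score, filled where the central 200 bp hold a forkhead core and open where they do not. Cdh11 has peaks out to 624 kb upstream and 1644 kb downstream of its start site, and Cdh2 has 15 of 21 upstream.

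Of the type II genes besides Cdh11, Cdh6 had a peak at its promoter, defined to run from 1000 bp before a start site to 100 bp after it. Cdh6, also called K-cadherin and known from the developing kidney, lies on the minus strand of chromosome 15 from 13028701 to 13173675. The peak was centred 0.469 kb upstream of the start site and its score, 11.3, was near the lowest in the list (10.1). The whole peak is shown because it was the only peak at a promoter of one of the 10 cadherin genes. It is given as the plus strand of mm10, against the direction of the gene, with its 1 forkhead core in capitals.
Cdh6 promoter peak, chr15:13174038-13174250, plus strand: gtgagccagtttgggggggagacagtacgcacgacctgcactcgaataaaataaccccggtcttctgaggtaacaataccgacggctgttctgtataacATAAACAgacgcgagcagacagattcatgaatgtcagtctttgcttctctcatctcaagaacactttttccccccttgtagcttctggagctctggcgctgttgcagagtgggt
The other 8 peaks of Cdh6 were all upstream, 43.2 to 645 kb from the start site, and the highest-scored (20.8) lay 341 kb away. Both the promoter core and the cores of 5 other Cdh6 peaks fell in the central 200 bp, so that 6 of 9 peaks held one.

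Cdh8, Cdh9, Cdh10 and Cdh12 had few peaks for their territories of 1186 to 3449 kb. Cdh10 had 8 peaks with scores from 11.2 to 41.2. The peak with 41.2 lay 58.7 kb upstream of the Cdh10 start site in an intron of the long noncoding RNA gene C030047K22Rik, and an intronic peak of Cdh10 itself, 13.2 kb downstream of the start, scored 25. Cdh8 had 6 peaks, of which the highest (41.1) and the peak nearest to the start site (14.9) lay 235 and 230 kb upstream in an intron of the long noncoding RNA gene A330008L17Rik. All 3 peaks of Cdh9 lay beyond its 3′ end, 634 to 935 kb from the start site, with scores of 18.1, 10.7 and 19.7, and the peak scored 18.1 was 93% repeat-masked. Cdh12 had 2 peaks, with scores of 61.4 and 10.3. The value 61.4 is the highest of all 103 peaks and ranked 817 in the whole list. It lay 207 kb upstream of the nearest Cdh12 start site in an intron of the antisense gene Gm49685. Cdh7 had 3 upstream peaks with scores of 10.5 to 12.7, the nearest of them 9.86 kb from its start site.

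T-cadherin, Cdh13, is annotated over 1041 kb on the plus strand of chromosome 8 from 118283733. It had 6 peaks, 4 of them in its introns, and the highest-scored (22.5, 118316794 to 118317006) was also the nearest to the start site at 33.2 kb downstream. In this peak the core GTAAACA was centred exactly on the peak midpoint. The nearest-start rule missed part of the long genes: the annotated span of Cdh13 held 10 peaks, 6 of which were nearer to the start of Hsbp1, and that of Cdh12 held 4, 3 of which were nearer to the start of Acot10. The peaks assigned to Hsbp1 within Cdh13 reached a score of 47.1, above any peak assigned to Cdh13.

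The type I genes Cdh2 and Cdh4 had their peaks mainly upstream, which was not particular to them. Of the 103 cadherin peaks, 65 lay upstream, among them all 9 of Cdh6, all 3 of Cdh7 and 5 of 6 at Cdh8. The part of each territory that lies upstream of its gene was not taken into account. Cdh2 is annotated on the minus strand of chromosome 18 from 16588877 to 16809246, and 15 of its 21 peaks lay upstream, 3 in introns and 3 beyond the 3′ end. Its highest-scored peak (33.5, 17624460 to 17624672) lay 815 kb upstream, and its nearest (15.2, 16807877 to 16808089) lay in an intron 1.26 kb downstream of the start site. Forkhead cores were present in 10 of the 21 peaks of Cdh2 (47.6%, exact 95% interval 25.7 to 70.2), against 72.5% of all other peaks. The 4 highest-scored of its upstream peaks, with scores of 33.5, 30.9, 24.6 and 20.8, included 1 with a core, the one scored 20.8. An intronic peak scored 25.5, above 2 of these, also held a core. Of the 12 peaks of Cdh4, on the plus strand of chromosome 2 from 179442431 to 179899373, 9 lay upstream and 3 in introns. Their scores ran from 10.3 to 23.6, the highest 296 kb and the nearest 26.4 kb upstream of the start site. For 2 of the intronic Cdh4 peaks the nearest start site was that of a short transcript near the 3′ end of the gene.

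The cadherin peaks lay far from start sites. Their median distance was 341 kb, against 51.0 kb for the 25601 other peaks. Of the 103, 83 (80.6%) lay more than 100 kb from the start site, against 33.7% of the other peaks, and 15 (14.6%) lay more than 1000 kb away, against 0.684%. Distance is tied to the assignment rule through the length of the territories and was therefore not tested. By annotation 71 peaks (68.9%) were intergenic, 30 (29.1%) intronic and 2 (1.94%) at promoters, and none had its centre in an exon. The other peaks were 41.7% intergenic, 46.2% intronic, 8.55% at promoters and 3.59% exonic. Of the 30 intronic peaks, 17 lay in the cadherin gene itself and 12 outside it in another gene, each a noncoding RNA gene or a pseudogene. The remaining 1, the Cdh12 peak scored 61.4, lay in an intron of Gm49685 and also within the annotated span of Cdh12, though in no intron of a Cdh12 transcript of the basic set. The promoter class held, besides the Cdh6 peak, a peak at the start of the processed pseudogene Gm14292, 265 kb upstream of Cdh4.

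The authors' peak score was used to describe and rank peaks within the list. Cadherin peaks had a median of 14.4 and ranged from 10.3 to 61.4, and the other peaks had a median of 16.2 and ranged from 10.1 to 243.9. Of the 103 cadherin peaks, 9 (8.74%) ranked in the highest decile of the list, 6 of them at Cdh11. At Cdh11 these were 18.2% of its peaks, and at the other 9 genes together 4.29%. Median scores by gene ran from 11.8 for Cdh7 through 13.5 for Cdh4, 14.4 for Cdh6 and 15 for Cdh2 to 18 for Cdh11, with 18.1 for the 3 peaks of Cdh9 and 35.9 for the 2 of Cdh12. The ranges of the genes overlapped throughout: the lowest score of each gene was between 10.3 and 11.3. The focus ratio, for which a higher value is read as a sharper peak, had a median of 0.787 for cadherin peaks and 0.783 for other peaks. Within Cdh11 the 17 upstream peaks had a median ratio of 0.718 and the 11 peaks beyond the 3′ end one of 0.796. The 6 peaks of Cdh13 had the highest median of the family, 0.888.

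**Figure D3:**
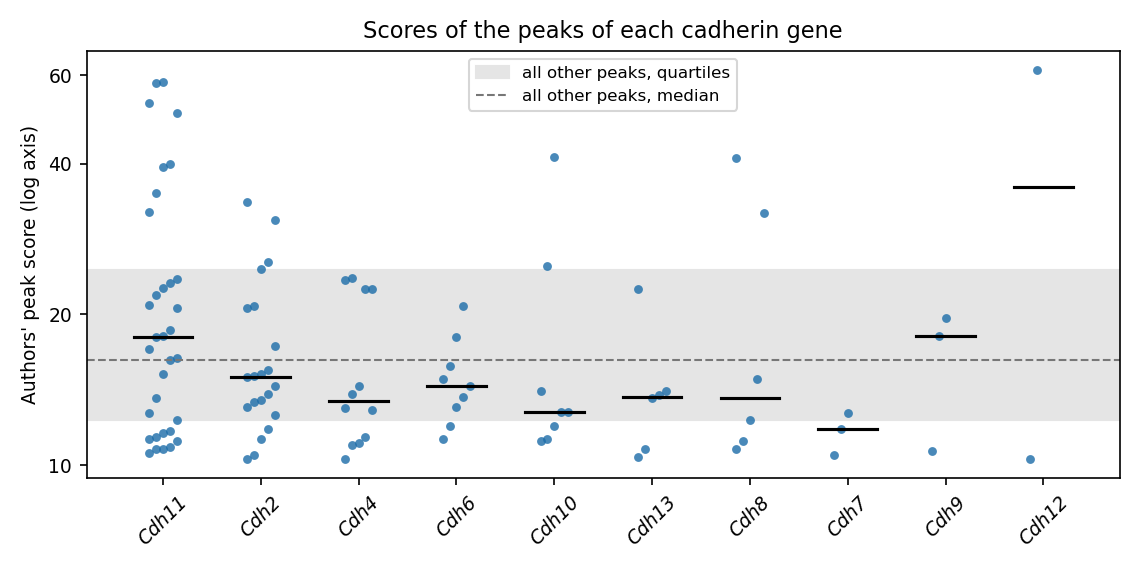
Points are the scores of single peaks on a log axis, by gene, and short black lines are medians. The grey band marks the quartiles and the dashed line the median (16.2) of all other peaks. Cdh11 has 6 of the 9 cadherin peaks in the highest decile of the list, and the highest single score, 61.4, belongs to Cdh12.

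The forkhead core was more frequent at the centres of cadherin peaks than in their surroundings. The core, meaning TAAACA or TAAATA preceded by A or G, was searched on both strands in the central 200 bp, and in windows of the same width 2000 bp to either side. For these flank windows, upstream means lower and downstream higher chromosome coordinates, whatever the strand of the gene. It was present in 70 of 103 centres (68.0%, exact 95% interval 58.0 to 76.8), in 30 upstream windows and in 30 downstream windows (29.1%), a 2.33-fold difference. On the upstream comparison 53 peaks had the core at the centre only and 13 in the flank only, and on the downstream comparison these were 48 and 8 (adjusted exact McNemar p = 4.34e-06, two-sided, the larger of both sides, over 6 motifs). In the whole list 72.5% of peaks held the core. Among the other peaks the share was 72.5% (interval 72.0 to 73.1), which lies within the interval of the cadherin peaks. The flanks differed more: 29.1% of cadherin flanks held the core, against 18.3% of the flanks of other peaks. Centre over flanks was thus 3.96-fold in the other peaks. A higher share at the centre was therefore not particular to cadherin peaks. Cadherin peaks had a median GC content of 38.5% at the centre and 39.5% in the flanks, against 43.5% in both places for other peaks, and the part of base composition in the flank shares was not tested.

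The strict form GTAAACA was present in 23 centres (22.3%, interval 14.7 to 31.6), in 1 upstream and in 5 downstream windows (7.67-fold, adjusted exact McNemar p = 0.0016, n = 103). The other peaks held it in 27.4%. Of the 4 forms, ATAAACA occurred in 33 cadherin peaks (32.0%, against 38.1% of other peaks), ATAAATA in 20 (19.4% against 13.5%) and GTAAATA in 15 (14.6% against 9.77%). The differences in single forms between cadherin and other peaks were not tested. The core was found once in 46 peaks, 2 times in 17 and 3 or more times in 7. It was found 2 or more times in 23.3% of cadherin peaks and 21.2% of other peaks. The peaks with the most matches, 4 each, were a peak of Cdh2 814 kb upstream and a peak of Cdh9 634 kb downstream. Most of the window of that Cdh9 peak was repeat-masked. Matches gathered at the centre: 61 of 103 (59.2%) were centred within 20 bp of the peak midpoint, against 58.0% of 25617 matches in other peaks.

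**Figure D4:**
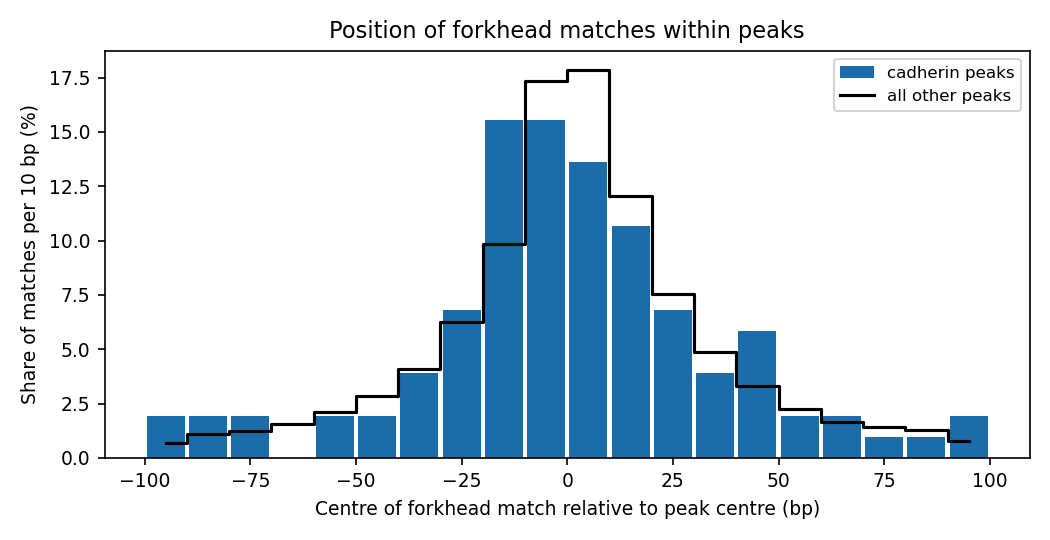
Bars give the share of the 103 forkhead matches of cadherin peaks per 10 bp of distance from the peak centre, and the black line the same for the 25617 matches of other peaks. Both distributions are highest within 20 bp of the centre, with 59.2% and 58.0% of matches there.

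The share of peaks with the core varied among the genes, on small numbers. It was 25 of 33 for Cdh11 (75.8%, interval 57.7 to 88.9), 10 of 21 for Cdh2, 7 of 12 for Cdh4, 6 of 9 for Cdh6, 6 of 8 for Cdh10, 5 of 6 for Cdh8 and for Cdh13, 1 of 3 for Cdh7, 3 of 3 for Cdh9 and 2 of 2 for Cdh12. The exact intervals of all these shares overlap. The share of the peaks outside the cadherin genes, 72.5%, lies within each of them except that of Cdh2, whose upper bound is 70.2%. This difference was not tested. Cadherin peaks in the highest-scored part of the list, when it is cut into 3 equal parts by score, held the core in 22 of 29 cases (75.9%), those of the middle part in 21 of 33 (63.6%) and those of the lowest part in 27 of 41 (65.9%). The other peaks had 80.7%, 71.8% and 65.1%, and the interval of each cadherin share includes the value of the other peaks. The 33 cadherin peaks without a core had scores of up to 41.1, the highest being the Cdh8 peak shown above. Of them, 9 (27.3%, interval 13.3 to 45.5) held the shorter TAAACA, against 29.7% of the 7030 other peaks without a core. In the flanks of these cadherin peaks the share was 25.8%, close to that at the centre, and in those of the other peaks 15.0%. Flank windows that held a core were not left out, and centre and flanks were not tested against each other for this word.

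Another 4 short sequences were counted in the same windows, and none passed the threshold of 0.05. The E-box CATCTG, bound by basic helix-loop-helix factors, was in 28.2% of cadherin centres and 15.5% of flanks (adjusted exact McNemar p = 0.136), and the E-box CAGCTG was in 16.5% and 5.34% (adjusted exact p = 0.115). The sequence GGAATG of TEAD factors was in 22.3% of centres and 11.2% of flanks (adjusted exact p = 0.136). The homeodomain sequence TAATTA was in 4.85% of centres and 12.6% of flanks (adjusted exact p = 0.115). In the other peaks these shares at the centre were 28.0%, 18.7%, 15.0% and 6.08%. Their flanks had 14.9%, 8.42%, 10.8% and 6.39%. Centre over flanks at cadherin peaks was 1.81-fold for CATCTG (other peaks 1.88) and 3.09-fold for CAGCTG (2.22). It was 2-fold for GGAATG (1.4) and 0.385-fold for TAATTA (0.951). These folds were not tested against each other. With 103 peaks the interval of the CATCTG share ran from 19.7% to 37.9%. A p-value above the threshold therefore does not show that centre and flank shares were equal.

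**Figure D5:**
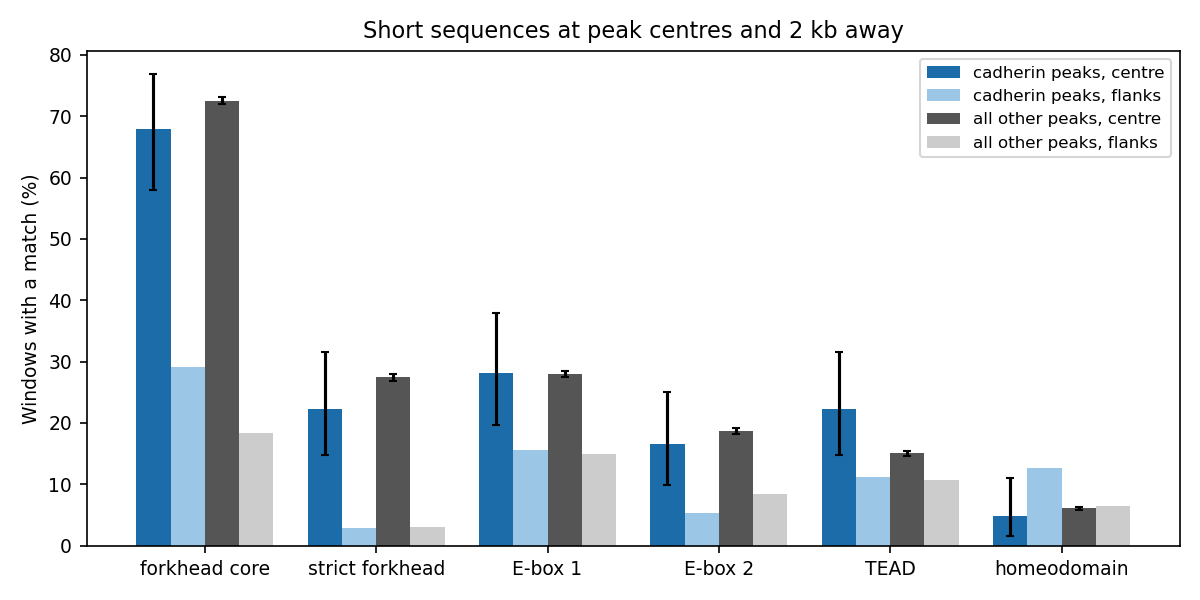
Bars give the share of windows with at least 1 match, at the centre and in the flanks (mean of both sides), for cadherin peaks in blue and all other peaks in grey, and error bars are exact 95% intervals of the centre shares. E-box 1 is CATCTG, E-box 2 is CAGCTG, TEAD is GGAATG, homeodomain is TAATTA and the strict forkhead form is GTAAACA. The forkhead core stands at 68.0% at cadherin centres and 29.1% in their flanks.

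Repeat content of cadherin peaks was close to that of the list. Masked bases made up a mean of 13.3% of the central 200 bp in cadherin peaks and 13.1% in other peaks, against 36.4% of the genome, and 38 cadherin peaks (36.9%) held none. In 4 cadherin peaks more than 50% of the window was masked. Some peaks lay in close pairs: of 93 gaps between the centres of neighbouring peaks of the same gene, 8 were within 2500 bp. Of these pairs, 4 were at Cdh11, 3 at Cdh2 and 1 at Cdh10. The share of close pairs among the other peaks was not computed, so whether pairs were more frequent here is not known. At Cdh11 the pairs lay 13.9 and 15.8 kb downstream of the start site, and 63.6 and 64.2 kb, 198.6 and 199.0 kb, and 449.0 and 449.9 kb upstream. The closest pair was 443 bp apart, with scores of 10.8 and 10.6. The pair at 63.6 and 64.2 kb scored 20.6 and 34.9, and both peaks held a core.

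Other genes of cell adhesion were counted in the same way. Of 15 further cadherin and cadherin-related genes, 9 had at least 1 peak (against 37.3% of all protein-coding genes), with a median of 2 peaks. Cdh5 had 18, Cdh26 had 16, Cdh18 had 5 and Cdh17 had 4. Cdh3, encoding the P-cadherin of epithelia, had 2. The 6 genes without a peak, among them E-cadherin (Cdh1) with a territory of 54.8 kb, had territories of 6.14 to 98.5 kb. All were shorter than the 273 kb at which the top decile begins. Cdh3 (36.5 kb) and Cdhr3 (96.8 kb) had territories within the same range and 2 peaks each. All 12 catenin and junction partner genes had at least 1 peak, with a median of 2. The nectin gene Nectin3 had 9, Ctnnb1 (beta-catenin) had 7, Ctnnd2 (delta-catenin) had 4 and Ctnna2 (an alpha-catenin) had 3. Of 11 non-clustered protocadherin genes, 9 had a peak, with a median of 6: Pcdh18 had 29, Pcdh7 had 21, Pcdh9 had 15 and Pcdh20 had 11. The territories differed in length between these lists: all 10 cadherin genes described here, 5 of the further cadherins, 6 of the catenins and partners and 9 of the protocadherins were in the top decile. Over these genes alone, each of which had a peak, the median per 100 kb of territory was 0.436 for the 10 cadherin genes, 0.225 for the further cadherins, 0.539 for catenins and partners and 0.383 for protocadherins, against 0.687 for all genes in the top decile. Pcdh18, at 1.45 per 100 kb, was close to Cdh11 at 1.41. Of the further cadherins in the top decile, Cdh26 (3.11) and Cdh5 (2.60) were denser than Cdh11. Cdh18 (0.225), Cdh19 (0.214) and Cdh20 (0.0716) were sparser. Outside the top decile, Cdh3 (5.48), Cdh17 (3.08), Cdhr3 (2.07) and Cdh23 (1.53) were also denser, and the 6 genes named above as lacking a peak were not.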

How the data were processed

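FLAG ChIP and input libraries from mouse tongue at E12.5 lie behind 1 deposited peak table. Per the submitters' processing notes, reads were aligned to mm10 with Bowtie2 (2.4.1), handled with SAMtools (1.7.1), and peaks were called with HOMER, whose version is not given in the sources used here. Per the series' design text the input was the control. Whether ChIP libraries were pooled is not stated. The table holds 25707 peaks, each 212 bp from start to end. The score of each peak is as deposited by the authors, with its scale not stated. The last column is a fraction as deposited by the authors, read as the focus ratio.

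Here 3 peaks on a contig were left out. Nearest start sites came from GENCODE M21 basic transcripts of protein-coding genes. Sequence of the same build came from RefSeq (GRCm38). Positions are as deposited. Windows of 200 bp and flanks at 2000 bp were searched on both strands. Exact two-sided McNemar tests were adjusted by Benjamini-Hochberg over 6 motifs. Intervals are exact (Clopper-Pearson, 95%). Of 206 flanks, 4 overlapped another peak. The cadherin genes, the other gene lists and the motifs were chosen with earlier results of these data known. Named peaks were, by rule, the 5 highest of Cdh11 and the highest and nearest of each other gene. Other peaks and list genes named singly, and the TAAACA count, were chosen after their values were seen. Functions were tested on simulated data. The work ran in Python 3.11.15 with scipy 1.17.1, pandas 2.3.3, matplotlib 3.10.9 and numpy 2.4.6.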

Additional observations from a re-analysis of the deposited data

How the results depend on the processing

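The difference in the forkhead core between cadherin peak centres and flanks kept its direction and its side of the threshold under all 9 alternatives, with folds from 2.15 (peaks scoring at or above the list's median of 16.2, adjusted exact McNemar p = 0.0245) to 7.67 (GTAAACA only, adjusted exact p = 0.0016). It was 4.13-fold with a 100 bp window. Leaving out Cdh2 and keeping 1 peak of each close pair were chosen after the data were seen. The share of peaks with the core stayed between 62.1% and 73.2% except for GTAAACA alone (22.3%). The number of peaks depended on the assignment: 103 became 12 when the nearest start site of any annotated gene was used, noncoding genes included, 27 inside the annotated gene spans, 41 at or above the list's median score, 12 within 50 kb and 3 within 10 kb. Cdh11 then had 0, 5, 20, 3 and 0 peaks. The median score was 16.4 for peaks inside gene spans, against 14.4. No paired analysis was possible because the list has no values per library, and for the same reason no library could be left out. Depth is unknown, so what it limits could not be given.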
